A study of Sus scrofa with 20 samples.

Results

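The ubiquitin-specific proteases (USPs) are the largest family of deubiquitinases, the enzymes that take ubiquitin off other proteins. Members were all probe sets of the array with a single gene symbol made of USP and a number, with the Y-linked gene left out. This gave 107 of the 45922 porcine probe sets tested, and they stand for 45 of 13609 genes with a symbol. For summaries by gene, the probe set with the highest mean over all 20 arrays was used and is called the brightest. RNA from the longissimus dorsi of 10 adult Duroc and 10 adult PiNN pigs was hybridised to Affymetrix Porcine Snowball arrays, a single array for each animal. Duroc is a breed known for intramuscular fat, and PiNN pigs are Pietrain animals, a lean and heavily muscled breed, that are homozygous negative for the RYR1 allele of malignant hyperthermia. The labels date the muscle to 24 h before slaughter. The methods describe tissue for bisulfite libraries of the same project as taken once the pigs were slaughtered, so the time for the arrays is unsure. Breed is the only difference the labels name, and each breed is a sample of its own line, so line and breed cannot be told apart.

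Ubiquitin is a small protein that is joined to others as a single unit or as a chain, and chains of the common kind send a protein to the proteasome. USPs cut ubiquitin off, which can rescue a substrate from breakdown, change its activity or return ubiquitin to the pool. In skeletal muscle the ubiquitin and proteasome system breaks down contractile proteins during wasting, and several USPs have been tied to that process in rodents. Other members act on histones, on DNA repair proteins, on receptors in endosomes or on the mitochondrial surface, so the family is not a pathway with a single output.

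The arrays held the RNA of muscle by its own markers. All 11 measured muscle markers were above background, with a mean log2 signal of 12.11 to 12.29 in Duroc and 12.06 to 12.36 in PiNN animals, and 0 of them passed the test. PYGM was barely above it, with a mean of 4.28 against 3.93, and above background on 19 of 20 arrays. The other muscle markers had means of 10.47 to 13.92. Among the cell types checked, only the blood marker ALAS2 passed. It was dim, with a Duroc mean of 3.91 against the background mean of 3.93, and above background on 15 of 20 arrays. ALAS2, an enzyme of haem synthesis in red cell precursors, differed by -0.51 (adjusted p = 0.0327 from limma), and HBB, a globin, by -1.16 (adjusted p = 0.0527), so that the mean log2 signal of these 2 of 3 listed blood markers was 4.50 to 6.05 in Duroc and 5.51 to 6.92 in PiNN animals. Markers of fat (5 of 5 measured), leukocytes (4 of 5), endothelium (3 of 3), fibroblasts (4 of 4) and nerve (1 of 3) gave 0 passing genes. Counts of 0 in lists this short are close to the share of all named genes, 6.39%. The T cell marker CD3E lay below background. Background was highest for PiNN animal 49, at 4.21 against 3.78 to 4.10 on the other 19 arrays. In whole muscle, a lower signal from fewer cells of a type and from less RNA per cell cannot be told apart.

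Duroc muscle had higher signals of a small group of USPs, led by USP15, USP1, USP45 and USP8. The mitochondrial USP30 and the clock-linked USP2 were lower in Duroc. Of the 107 probe sets, 13 passed an adjusted p of 0.05 (12.1%, against 4.17% of all tested probe sets). Higher signals in Duroc made up 11 of these (10.3%, against 2.76%) and lower signals 2 (1.87%, against 1.41%). The lower count is close to the share over all tested probe sets, and it was 0 without Duroc animal 28 or 46. By the brightest probe set, 9 of 45 genes passed (20.0%, against 6.39% of all named genes), of which 7 were higher in Duroc (15.6%, against 4.06%) and 2 lower (4.44%, against 2.33%). Among probe sets with a mean above that of the 69 background probe sets, 12 of 81 USP probe sets passed (14.8%, against 6.08%). At an unadjusted p of 0.05, 37 of 107 were called (34.6%, against 17.3%).

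The family did not shift as a whole. The median difference over the 45 genes, Duroc minus PiNN on the log2 scale, was -0.03, which is also the median over all named genes. The differences ran from -0.51 to 0.86, and 19 of 45 were positive (42.2%, against 43.3% of named genes). No USP probe set separated the breeds completely (0 of 107, against 0.122% of all tested). The background level moved with breed to a degree, at 3.78 to 4.10 in Duroc and 3.83 to 4.21 in PiNN arrays. With that level as a covariate, 9 USP probe sets were higher and 2 lower, and 10 of the 13 calls were shared. Without PiNN animal 49 the counts were 8 higher and 4 lower.

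**Figure D1:**
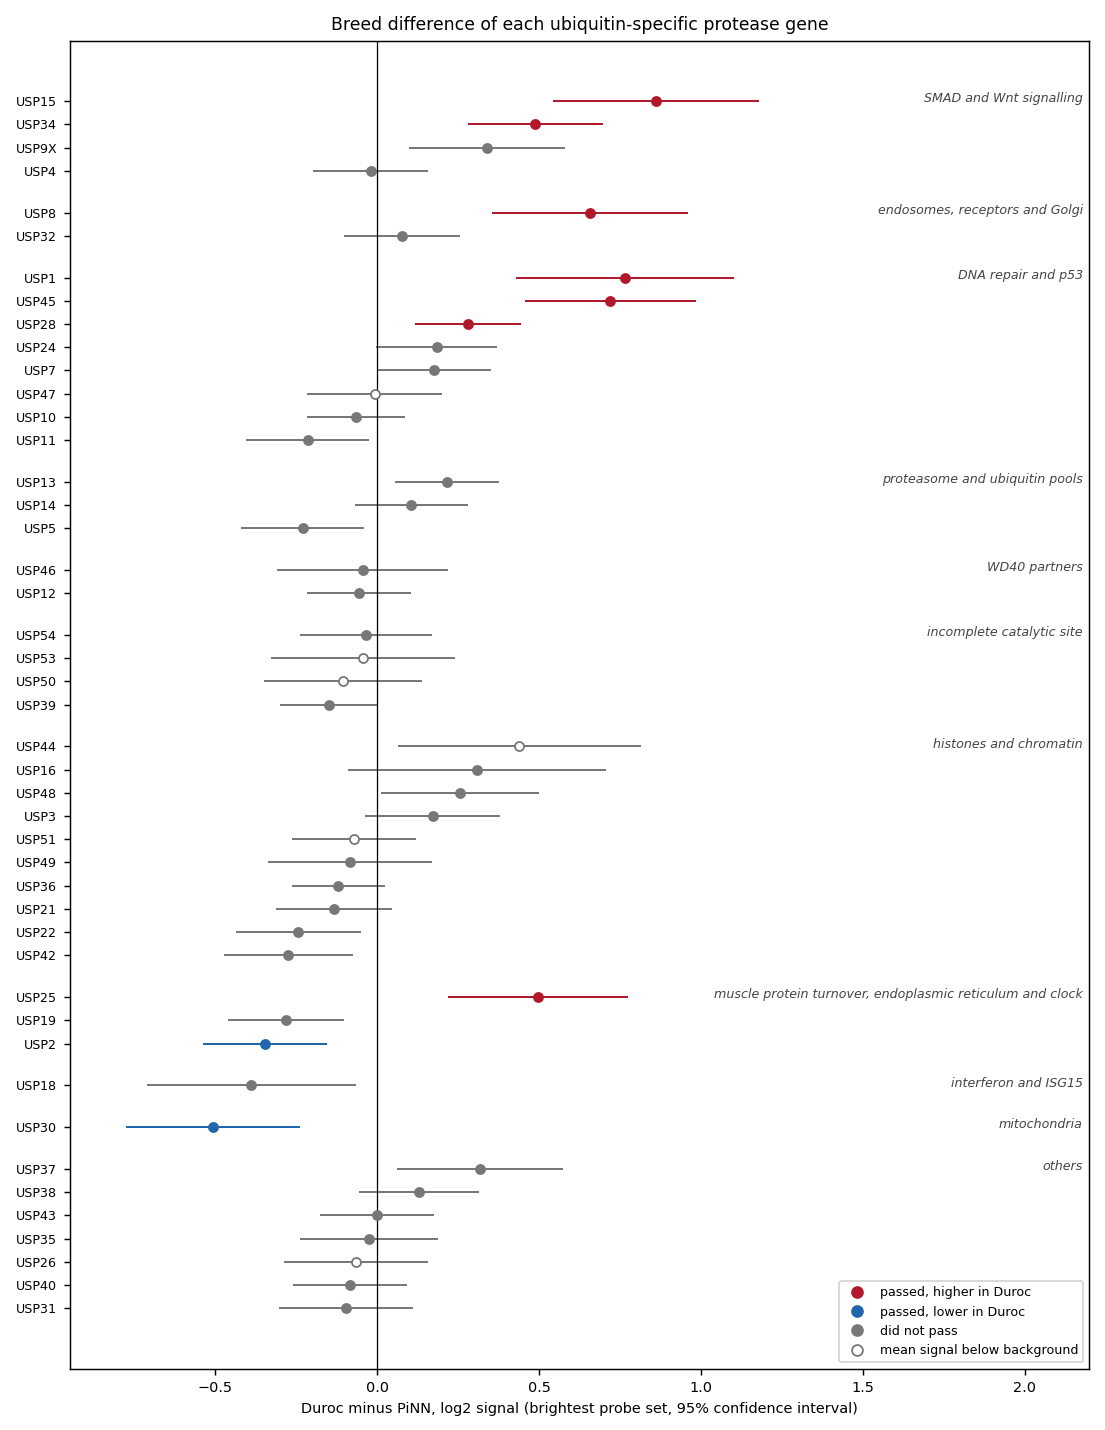
Difference in log2 signal between Duroc and PiNN muscle (x axis, Duroc minus PiNN) for the brightest probe set of each of 45 USP genes, grouped by role, with 95% confidence intervals. Filled red and blue points passed the test, 7 higher and 2 lower in Duroc, and open points are genes whose mean signal lay below background.

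Of the 4 members known for SMAD and Wnt signalling, 2 passed, both higher in Duroc (4.06% of all named genes were), and the median difference of the group was 0.41. USP15 takes ubiquitin off receptor-regulated SMADs and the TGF-beta receptor, which carry the signals of TGF-beta and myostatin. RefSeq places it on chromosome 5 from 26964380 to 27082549 of the Sscrofa11.1 genome. Its brightest probe set, SNOWBALL_033181_st, had a lowest, median and highest log2 signal of 7.29, 8.0 and 8.61 in Duroc, against 6.67, 7.04 and 7.63 in PiNN animals. All 10 Duroc animals lay above the PiNN median and 7 of them above every PiNN animal, so the breeds overlapped only at their edges. The difference was 0.86 (standard error 0.15, adjusted p = 0.00361 from limma, n = 10 per breed), a 1.82-fold higher signal and the largest of the family. A second USP15 probe set, SNOWBALL_000925_st, ran from 6.27 over 6.72 to 6.99 in Duroc and from 5.85 over 6.13 to 6.41 in PiNN animals. It differed by 0.56 (standard error 0.10, adjusted p = 0.00268), with 9 of 10 Duroc animals above every PiNN animal. The last USP15 probe set lay below background and differed by 0.31 (adjusted p = 0.225).

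USP34, a very large protein that stabilises axin in the Wnt pathway, lies on chromosome 3 from 80330896 to 80589514. Its only probe set had log2 signals of 8.52, 8.70 and 9.01 (lowest, median, highest) in Duroc, against 7.70, 8.25 and 8.66 in PiNN animals. The PiNN median was exceeded by all 10 Duroc animals. The breeds differed by 0.49 (adjusted p = 0.00769 from limma, standard error 0.10). The X-linked USP9X, which removes ubiquitin from SMAD4 and from the survival factor MCL1, did not pass, with a difference of 0.34 (standard error 0.12, adjusted p = 0.107) at its brightest probe set. Its 4 probe sets differed by 0.34, 0.13, 0.36 and -0.03, the last one below background. The labels do not give the sex of the animals. The project lists both sexes among its bisulfite animals of either breed, without animal numbers, and sex was not inferred from the signals, so its part in the values of the X-linked members was not tested. USP4, a close relative of USP15 that acts on the TGF-beta receptor, differed by -0.02 at its brightest probe set.

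Among the 8 members tied to DNA repair and p53, 3 passed at the brightest probe set, all higher in Duroc, against 4.06% of all named genes. USP7 passed at another probe set, where 2.76% of all probe sets were higher. USP1 removes ubiquitin from FANCD2 and PCNA in the repair of damaged DNA, together with its cofactor WDR48. The gene lies on chromosome 6 from 149971471 to 149985946. Its signal at SNOWBALL_009163_st was 5.09, 6.09 and 6.58 (lowest, median, highest) in Duroc, against 4.69, 5.19 and 5.55 in PiNN animals. Most Duroc animals stood clear, with 8 of 10 above every PiNN animal, while the other 2, animals 31 and 32 at 5.11 and 5.09, lay below the PiNN median. The difference was 0.77 (standard error 0.16, adjusted p = 0.00939 from limma), or 1.70-fold. A second probe set differed by 0.56 and did not pass (adjusted p = 0.163), and the last, below background, by -0.11. With all 3 averaged per array, USP1 differed by 0.41 and no longer passed (adjusted p = 0.0687). WDR48 itself differed by 0.26 (adjusted p = 0.337), FANCD2 was below background, and neither passed.

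USP45, which acts on the nuclease subunit ERCC1 in nucleotide excision repair, lies on chromosome 1 from 66387616 to 66454806. At SNOWBALL_002608_st the lowest, median and highest log2 signals were 6.71, 7.08 and 7.29 in Duroc, against 5.47, 6.37 and 6.75 in PiNN animals. PiNN animal 36, at 5.47, was the lowest by a wide margin, and 9 of 10 Duroc animals were above every PiNN animal. The difference was 0.72 (standard error 0.13, adjusted p = 0.00343 from limma), or 1.65-fold, and without PiNN animal 36 it was 0.63 and still passed. The other 3 USP45 probe sets had means below background. SNOWBALL_043640_st was above background on only 2 of 20 arrays and differed by 0.68 (adjusted p = 0.0484), and the other two differed by 0.48 (adjusted p = 0.0627) and -0.14.

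USP28, a partner of the damage protein TP53BP1 that counteracts the ubiquitin ligase FBXW7 on MYC, lies on chromosome 9 from 41417560 to 41481044. Its only probe set had signals of 9.33, 9.76 and 9.90 (lowest, median, highest) in Duroc, against 9.26, 9.40 and 9.66 in PiNN animals. Duroc animal 31, at 9.33, lay within the lower part of the PiNN range, while 9 of 10 Duroc animals exceeded the PiNN median. At 0.28 (standard error 0.08, adjusted p = 0.0435 from limma), the difference was the smallest that passed. It passed in only 5 of the 20 fits that left out 1 animal, those without Duroc animals 28 or 31 or PiNN animals 20, 21 or 62, and reached 0.0862 without Duroc animal 46. It was also lost with the array background as a covariate (0.25, adjusted p = 0.0723), after quantile normalization (adjusted p = 0.0752), with centred arrays (adjusted p = 0.0664) and with a variance trend (adjusted p = 0.0550).

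USP7, which stabilises both MDM2 and p53, had 5 probe sets, and only 1 of them, SNOWBALL_004807_st, passed. The gene lies on chromosome 3 from 33754357 to 33810480. That probe set had signals of 8.25, 8.43 and 8.66 in Duroc, against 7.52, 8.08 and 8.31 in PiNN animals (lowest, median, highest), and 8 of 10 Duroc animals exceeded every PiNN animal. It differed by 0.39 (standard error 0.09, adjusted p = 0.0167 from limma). The brightest USP7 probe set differed by 0.17 (adjusted p = 0.289) and the other three by 0.23, 0.15 and -0.05. USP7 averaged over its probe sets differed by 0.18 and did not pass (adjusted p = 0.189). Its substrate MDM2 differed by 0.33 (adjusted p = 0.0635).

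The other repair and p53 members did not pass. USP24 had 9 probe sets, all above background, of which 7 had positive and 2 negative differences, from -0.15 to 0.28. USP10, which acts on cytoplasmic p53, differed by -0.07, and the X-linked USP11, a partner of BRCA2, by -0.22 (adjusted p = 0.215). USP47, which acts on DNA polymerase beta, had a mean below background at all 4 of its probe sets.

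**Figure D2:**
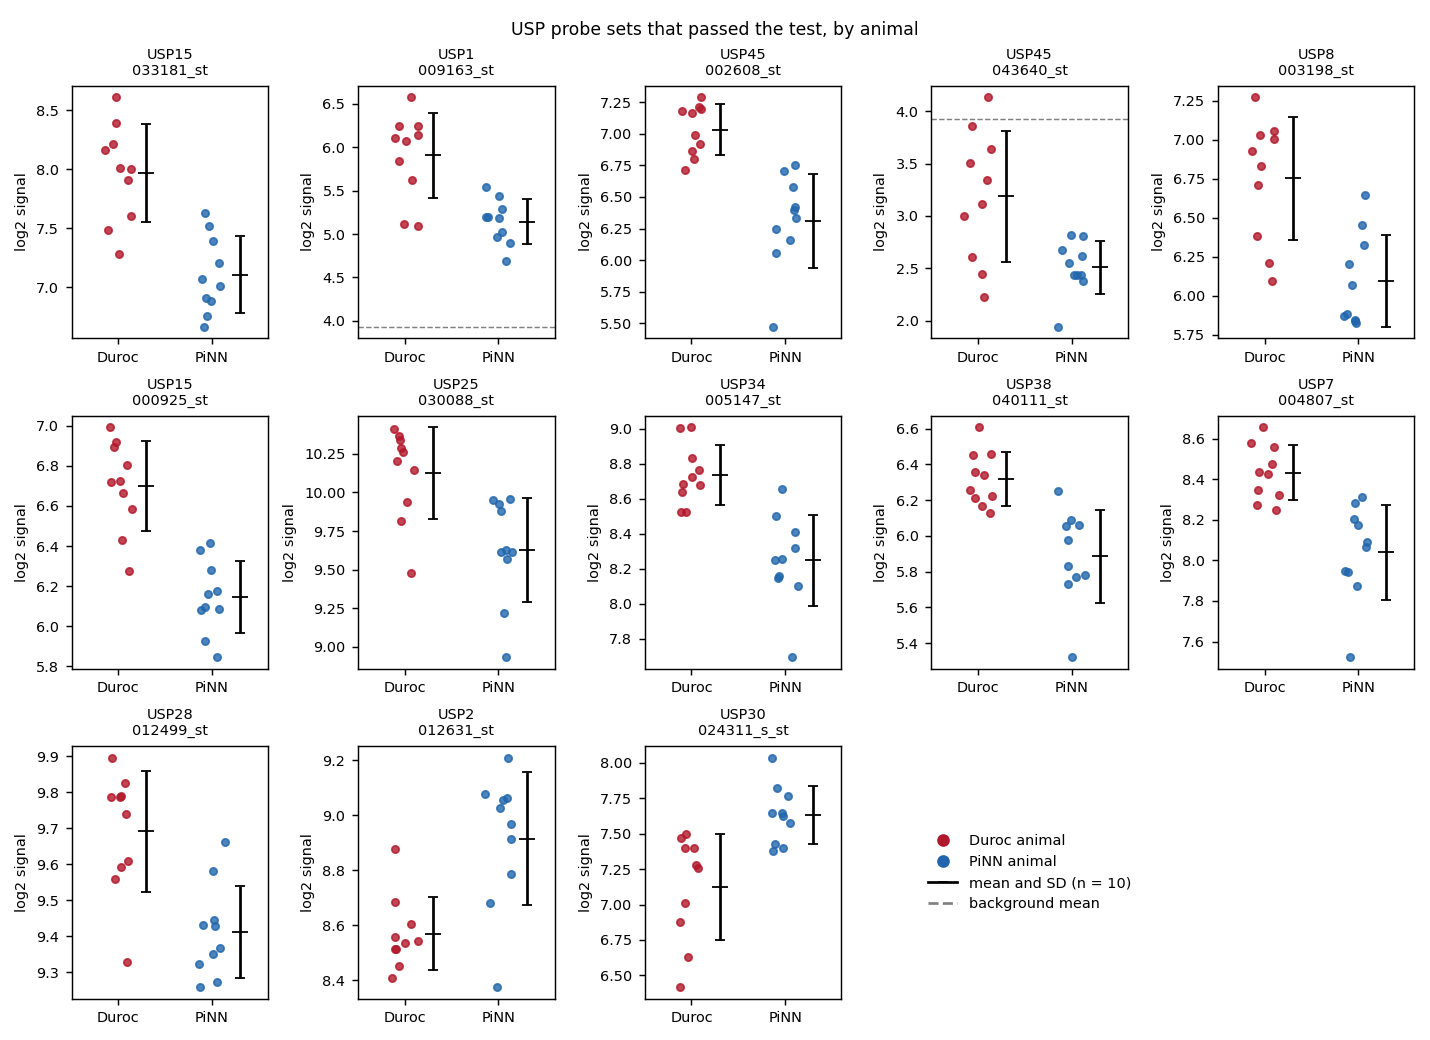
Log2 signal of each animal at the 13 USP probe sets that passed the test, with Duroc in red at the left and PiNN in blue at the right of each panel. Black bars are the mean and SD of 10 animals per breed, and the dashed line, where it falls in range, is the mean of the background probe sets. The breeds overlap in every panel, and the panel of the dim USP45 probe set lies mostly under the background line.

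USP8 was the passing member of the endosome and Golgi group. It deubiquitinates the epidermal growth factor receptor and binds the sorting proteins STAM and STAM2. The gene lies on chromosome 1 from 121306031 to 121376154, where its start overlaps the end of USP50, at 121307029. Its only probe set had signals of 6.09, 6.88 and 7.27 (lowest, median, highest) in Duroc, against 5.83, 5.98 and 6.64 in PiNN animals. All 10 Duroc animals were above the PiNN median, with 7 above every PiNN animal, and the lowest Duroc values were those of animals 31, 24 and 32, at 6.09, 6.21 and 6.38. The difference was 0.66 (standard error 0.15, adjusted p = 0.0125 from limma), or 1.58-fold. USP50 was below background on all 20 arrays and differed by -0.11. STAM2 differed by 0.39 (adjusted p = 0.0675), but STAM by only 0.06 (adjusted p = 0.749). HGS, another listed partner, differed by -0.15 (adjusted p = 0.348). USP32, the other measured member of the endosome and Golgi group, differed by 0.07 (adjusted p = 0.743). USP20 and USP33 were not analysed here.

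The 3 members tied to muscle protein turnover, the endoplasmic reticulum and the clock went in both directions. USP25, of which a longer muscle isoform is known in human and mouse, lies on chromosome 13 from 180571019 to 180708966. Its signals were 9.48, 10.23 and 10.41 (lowest, median, highest) in Duroc, against 8.93, 9.62 and 9.96 in PiNN animals. Here 7 of 10 Duroc animals exceeded every PiNN animal, and animal 31 was again the lowest Duroc animal. The difference was 0.50 (standard error 0.13, adjusted p = 0.0363 from limma), or 1.41-fold. It passed in 7 of 20 fits with 1 animal left out, those without Duroc animals 24, 31 or 32 or PiNN animals 19, 41, 47 or 62, and otherwise reached up to 0.0667. It was also lost in an ANOVA with Benjamini-Hochberg adjustment (adjusted p = 0.0615) and with arrays centred on their medians (adjusted p = 0.0578). The methods took q-values of the ANOVA, and by the q-value USP25 still passed. The array table does not say which isoform the single USP25 probe set reads.

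USP2, which in mouse acts on the clock protein PER1 and follows a daily rhythm, lies on chromosome 9 from 46563469 to 46590392. Its signals at SNOWBALL_012631_st were 8.41, 8.54 and 8.88 (lowest, median, highest) in Duroc, against 8.37, 9.0 and 9.21 in PiNN animals. The PiNN median was above all 10 Duroc animals, while PiNN animal 21, at 8.37, was lower than every Duroc animal. The difference was -0.35 (standard error 0.09, adjusted p = 0.0347 from limma), a 1.27-fold higher signal in PiNN. The second USP2 probe set differed by -0.22 (adjusted p = 0.227), again with all 10 Duroc animals below the PiNN median. The call passed in 7 of 20 fits with 1 animal left out, those without Duroc animals 24, 31 or 32 or PiNN animals 19, 21, 49 or 62, and otherwise reached up to 0.0675. It was also lost with the array background as a covariate (-0.30, adjusted p = 0.0621) and after quantile normalization (adjusted p = 0.0534). The hour of sampling was not given for single animals, so its part in the USP2 values was not tested.

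USP19 is anchored in the endoplasmic reticulum, rises in wasting muscle of rats, and its loss lessens muscle wasting in mice. Its signals were 6.66, 6.82 and 7.05 (lowest, median, highest) in Duroc, against 6.78, 7.18 and 7.40 in PiNN animals. Although all 10 Duroc animals fell under the PiNN median, the difference of -0.28 did not pass (limma, standard error 0.09, adjusted p = 0.0657). The second probe set differed by -0.16 (adjusted p = 0.407). With both averaged per array and the whole table collapsed in the same way, USP19 differed by -0.22 and passed (adjusted p = 0.0457). It also passed without PiNN animal 49 or 62, with the array background as a covariate (-0.34, adjusted p = 0.0171), after quantile normalization (adjusted p = 0.0229), with array weights (adjusted p = 0.0217), among probe sets above background (adjusted p = 0.0460) and by the q-value of the ANOVA.

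USP30 was the member with the most negative difference. It sits on the mitochondrial outer membrane, where it removes the ubiquitin that Parkin places on damaged mitochondria. The gene lies on chromosome 14 from 41765220 to 41818937. Its signals at SNOWBALL_024311_s_st were 6.42, 7.27 and 7.50 (lowest, median, highest) in Duroc, against 7.38, 7.63 and 8.04 in PiNN animals. Duroc animals were all under the PiNN median, and animals 31, 28 and 46 were the lowest, at 6.42, 6.63 and 6.88. The difference was -0.51 (standard error 0.13, adjusted p = 0.0273 from limma), a 1.42-fold higher signal in PiNN. It no longer passed without Duroc animal 28 (adjusted p = 0.0503) or 46 (adjusted p = 0.0559). The other 3 USP30 probe sets also had negative differences, of -0.14, -0.03 and -0.24, and did not pass. The blood markers were lower in Duroc as well, and their part in the lower USP2 and USP30 signals was not tested.

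**Figure D3:**
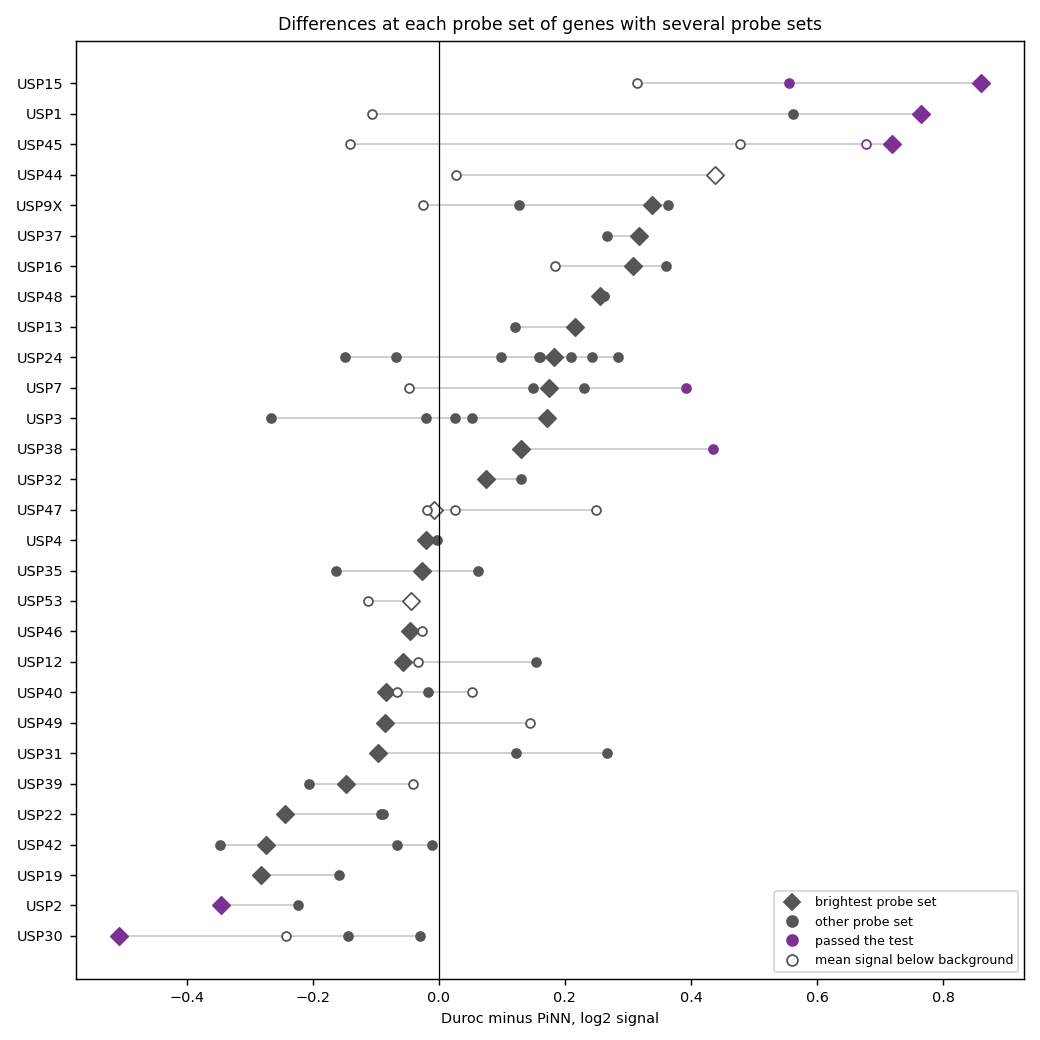
Difference in log2 signal, Duroc minus PiNN (x axis), at every probe set of the 29 USP genes with at least 2 probe sets. Diamonds are the brightest probe set, purple marks those that passed, and open symbols have a mean below background. Of the 23 genes with at least 2 probe sets above background, 18 have differences of a single sign among them.

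Probe sets of the same gene served as a second reading of each difference, although they share the animal, the RNA and the array. Of 29 genes with 2 or more probe sets, 23 had at least 2 above background. At 18 of these all such differences had the same sign, positive for 10 genes and negative for 8. In all, 11 genes had a passing probe set, 9 of them higher in Duroc and 2 lower. Of all tested probe sets, 2.76% were higher and 1.41% lower. The share of named genes with any passing probe set was not taken, and more probe sets give a gene more chances. USP15 was the only gene with 2 passing probe sets that were both above background. USP8, USP25, USP28 and USP34 had only 1 probe set, so no second reading was to be had. USP38 passed at SNOWBALL_040111_st, with 6.13, 6.30 and 6.61 in Duroc, against 5.32, 5.90 and 6.25 in PiNN animals (lowest, median, highest). The difference there was 0.43 (standard error 0.10, adjusted p = 0.0139 from limma), while its brightest probe set differed by 0.13 (adjusted p = 0.512). USP38 lies on chromosome 8 from 84567476 to 84601044.

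The 3 members that handle the proteasome and the free ubiquitin pool did not pass, which is close to the share of all named genes (6.39%) in so small a group. USP14, which rides on the proteasome and trims chains from its substrates, differed by 0.11 (95% confidence interval -0.07 to 0.28, adjusted p = 0.593 from limma). USP5, which takes apart unanchored chains, had signals of 6.52, 6.87 and 7.04 (lowest, median, highest) in Duroc, against 6.78, 7.05 and 7.38 in PiNN animals. All 10 Duroc animals were below the PiNN median, and the difference was -0.23 (95% confidence interval -0.42 to -0.04, adjusted p = 0.177). Its relative USP13 showed the opposite order, with all 10 Duroc animals above the PiNN median. There the signals were 10.32, 10.55 and 10.61 in Duroc, against 9.96, 10.26 and 10.57 in PiNN animals, and the difference was 0.22 (adjusted p = 0.129).

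None of the 10 members that act on histones and chromatin passed at any probe set. In so small a group this is close to the shares of all named genes (6.39%) and all tested probe sets (4.17%). Their differences ran from -0.27 to 0.44 at the brightest probe set. USP22 is the deubiquitinase of the SAGA coactivator complex, where ATXN7L3 and ENY2 hold it in its active form. All 3 of its probe sets had negative differences, the brightest of -0.24 (adjusted p = 0.153 from limma) with all 10 Duroc animals below the PiNN median. ATXN7L3 was lower in Duroc, with signals of 5.49, 5.65 and 5.88 (lowest, median, highest), against 5.42, 6.05 and 6.45 in PiNN animals. It differed by -0.38 (standard error 0.10, adjusted p = 0.0306). ENY2 went the other way, by 0.24, and did not pass (adjusted p = 0.526). ATXN7, another listed partner, differed by -0.03 (adjusted p = 0.898). USP42, which acts on histone H2B, had 4 probe sets with negative differences, of -0.27 (adjusted p = 0.114) at the brightest. USP16, which acts on histone H2A, differed by 0.31 and, of all 45 genes at the brightest probe set, varied most within Duroc, between 5.20 in animal 31 and 7.28 in animal 42. USP44, with the difference of 0.44, was below background on all 20 arrays, as was USP51.

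USP18, which removes the ubiquitin-like ISG15 and dampens the interferon receptor, was a dim gene. Its signals were 3.59, 4.28 and 4.53 (lowest, median, highest) in Duroc, against 3.96, 4.67 and 5.25 in PiNN animals. Again the 10 Duroc animals all had less than the PiNN median, and the difference of -0.39 did not pass (limma, standard error 0.16, adjusted p = 0.178). Of 14 measured interferon genes of a list of 17, 0 passed in either direction by limma, which is close to the share of all named genes (6.39%) in so short a list. The unadjusted p was under 0.05 for 4 at the brightest probe set, and the median difference was 0.05. The share was 17.3% over all tested probe sets and was not taken over brightest ones alone, so the measures are not alike. ISG15 differed by 0.08 (adjusted p = 0.823) and IFIT5, the nearest to passing, by 0.69 (adjusted p = 0.0534).

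The remaining members did not pass at their brightest probe set, and of these only USP38 passed at another, as given above. USP12 and USP46, which work with WDR48 and WDR20, differed by -0.06 and -0.05. The 4 members long classed as lacking a complete catalytic site, among them the splicing factor USP39, all had small negative differences, from -0.15 to -0.03, and USP50 and USP53 of these were below background. Of the 7 members without a group (USP26, USP31, USP35, USP37, USP38, USP40 and USP43), USP37 had the largest difference at the brightest probe set, 0.32 (adjusted p = 0.164 from limma), with all 10 Duroc animals above the PiNN median. USP26, which is X-linked, was below background on all 20 arrays.

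**Figure D4:**
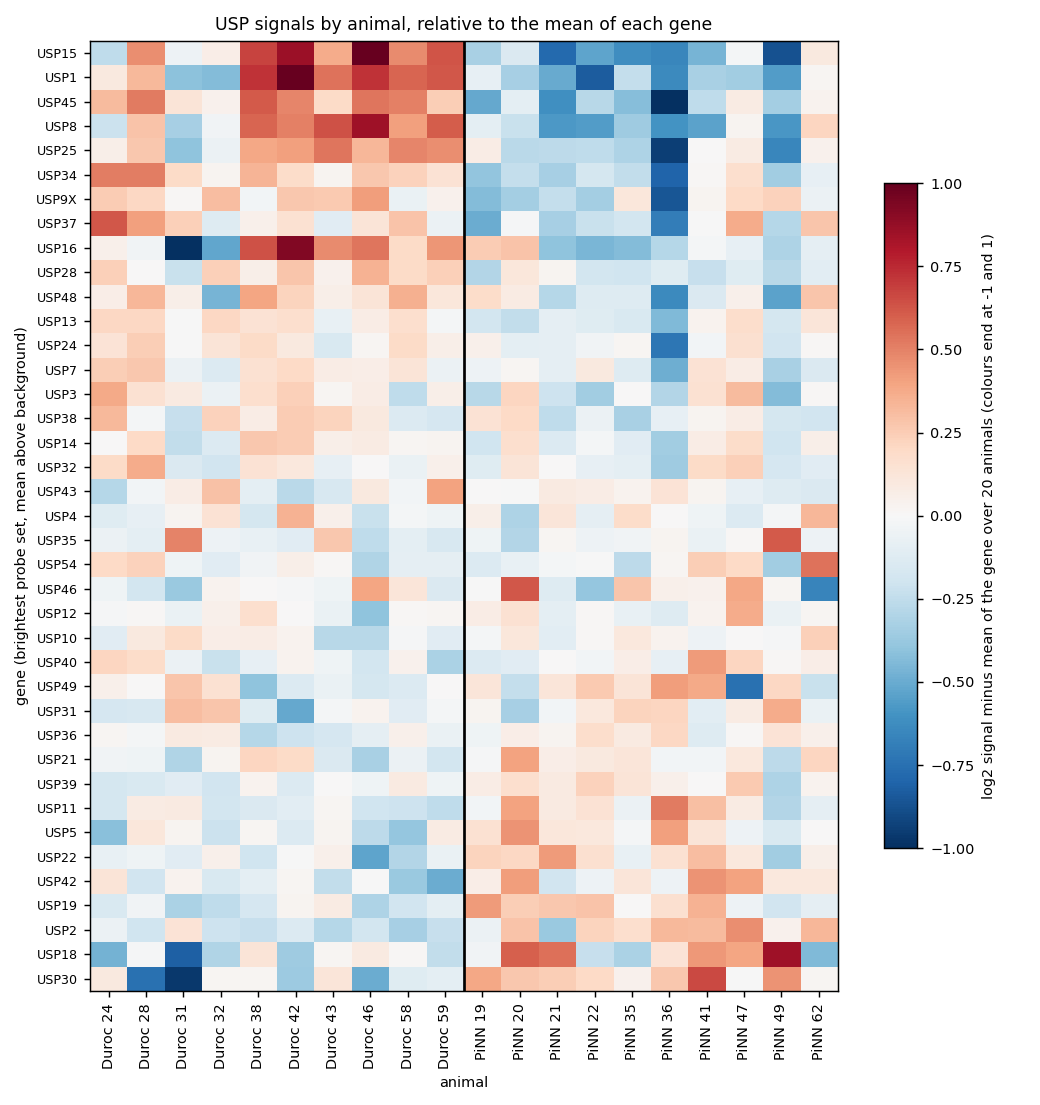
Log2 signal of the 39 USP genes whose brightest probe set was above background (rows), as the deviation from the mean of each gene over 20 animals, with Duroc animals (columns) left of PiNN animals. Colours end at -1 and 1, and the rows run from the most positive to the most negative difference between the breeds. Duroc animals 31 and 32 and PiNN animals 36 and 49 stand out within their breeds in the upper rows.

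The spread within the breeds was not even over the animals. Over the 39 genes above background, Duroc animal 31 was the lowest Duroc animal at 10 and the highest at 7. PiNN animal 36 was the lowest PiNN animal at 13 genes, and PiNN animal 47 the highest at 12. PiNN animal 49 was the lowest at 9. The array background was 4.10 for Duroc animal 31, 4.09 for PiNN animal 36 and 4.21 for PiNN animal 49, the 3 highest of the 20 arrays, and 3.99 for PiNN animal 47. The median deviation of the USP genes from their means was -0.19 in PiNN animal 49 and between -0.09 and 0.10 in the other 19 animals. Over all tested probe sets the corresponding medians were all between -0.03 and 0.03.

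Duroc animals 24, 31 and 32 had the lowest Duroc signals of USP15, with 7.29, 7.49 and 7.60, and of USP8. Their arrays had the highest Duroc backgrounds, 4.07, 4.10 and 4.05, against 3.78 to 3.86 for the other 7. In the fit that adjusts for array background, the breeds differed by 0.71 for USP15 (adjusted p = 0.00294 from limma), 0.59 for USP1 (adjusted p = 0.00653) and 0.51 for USP8 (adjusted p = 0.0120). All 3 still passed, at smaller sizes than without it (0.86, 0.77 and 0.66). Of the 10 Duroc animals, 38, 42, 43 and 58 also had a bisulfite sequencing library in the same project, as did PiNN animals 41, 47 and 49. Within these 7 animals USP1 differed by 1.14 (adjusted p = 0.0279 from limma), and within the other 13 by 0.52 (adjusted p = 0.212). For USP34 the order of the values was the other way, 0.25 (adjusted p = 0.530) and 0.60 (adjusted p = 0.0340). Whether the differences themselves differed between the subsets was not tested. Among the animals with a library, the array background was 3.79 to 3.83 in Duroc and 3.94 to 4.21 in PiNN. Breed and background therefore cannot be told apart within that subset. USP15 differed by 1.04 (adjusted p = 0.0562) and 0.74 (adjusted p = 0.0709) in the same subsets.

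**Figure D5:**
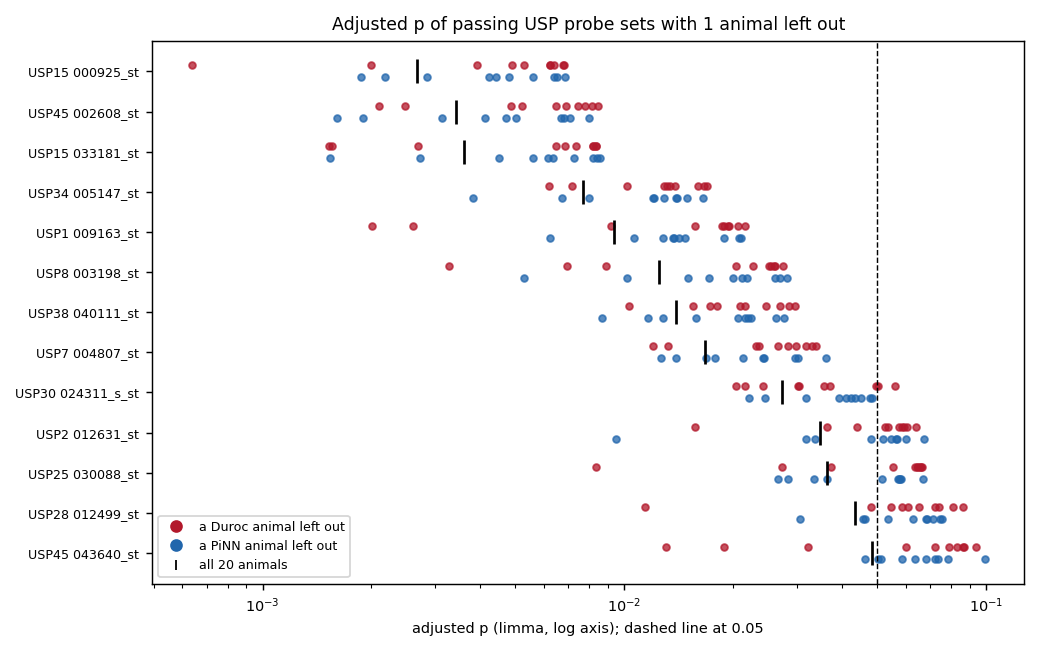
Adjusted p from limma (x axis, log scale) of the 13 passing USP probe sets when each of the 20 animals was left out, with red points for a Duroc animal left out and blue points for a PiNN animal. The black bar is the value with all 20 animals and the dashed line is 0.05. For 8 probe sets all 20 points lie left of the line.

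Leaving out each animal in turn kept some calls and lost others. These fits reuse the animals that made the calls, so they are no independent check. The 8 probe sets of USP15 (both), USP1, USP45 (SNOWBALL_002608_st), USP8, USP34, USP38 and USP7 that passed did so in all 20 fits. The other 5, of USP30, USP2, USP25, USP28 and the dim USP45 probe set, each exceeded 0.05 in at least 1 fit. The dim USP45 probe set passed in 4, those without Duroc animals 24, 31 or 32 or PiNN animal 47. The number of USP probe sets higher in Duroc was 8 to 13 over these fits, in which the calls over all tested probe sets ran from 1174 to 2489. The number lower was 0 to 4, with 0 without Duroc animal 28 or 46 and 4 without PiNN animal 49, where USP19 and USP22 were added. Other readings drew the line elsewhere. The brightest probe sets of USP7 and USP38 did not pass. With all probe sets of a gene averaged, USP1 and USP7 did not pass, while USP2, USP25, USP28, USP30 and USP38 did (USP38 by 0.28, adjusted p = 0.0251 from limma). USP25 and USP28 have a single probe set, so averaging left their differences as they were.

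Among deubiquitinases outside the USP family, ZUP1, MYSM1 and UCHL3 were higher and EIF3F lower in Duroc. Of 41 listed, 34 were measured, 3 were higher (4.06% of all named genes were) and 1 lower (2.33% were), and the median difference was -0.0045 on the log2 scale. The single lower gene is close to that share. ZUP1, which is specific for K63-linked chains, had signals of 4.71, 5.25 and 5.74 (lowest, median, highest) in Duroc, against 3.98, 4.62 and 4.77 in PiNN animals. The difference was 0.75 (adjusted p = 0.00237 from limma). MYSM1, which acts on histone H2A, had signals of 6.53, 7.07 and 7.30 in Duroc, against 6.12, 6.48 and 6.73 in PiNN animals, a difference of 0.56 (adjusted p = 0.00361). UCHL3, a ubiquitin hydrolase, differed by 0.42 (adjusted p = 0.0407), and EIF3F, a translation initiation factor with a deubiquitinase fold, by -0.40 (adjusted p = 0.00533). The number higher was 2 or 3 when single animals were left out, 2 in 10 fits, and the number lower stayed at 1.

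Of the ubiquitin genes and partners of the USPs, only ATXN7L3 and BECN1 passed. Of 31 listed, 27 were measured, 0 were higher and 2 lower in Duroc, against 4.06% and 2.33% of all named genes. The unadjusted p was under 0.05 for 9, against 17.3% of all tested probe sets, and the median difference was 0.02. The list was read at the brightest probe set of each gene. The unadjusted share over brightest probe sets alone was not taken, so the measures are not alike. The lower genes were ATXN7L3, given above, and BECN1, an autophagy protein that USP10 and USP13 stabilise. BECN1 had signals of 7.90, 8.28 and 8.49 (lowest, median, highest) in Duroc, against 8.21, 8.76 and 9.0 in PiNN animals, a difference of -0.39 (adjusted p = 0.0366 from limma). The ubiquitin genes UBB and RPS27A differed by -0.17 (adjusted p = 0.495) and 0.03 (adjusted p = 0.972). The count of lower partners was 0 without Duroc animal 38 or 43 or PiNN animal 20, 22 or 36, and 1 or 2 in the other fits.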

How the data were processed

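The authors deposited log2 signals per probe set, already brought to a common scale (array medians of 4.61 to 4.73). The submitters' notes name GCOS version 1.1.1. How they were summarized and normalized was not given in the sources read. The table has 47845 probe sets. The 45922 for pig were tested, and the remaining 1923 (controls, background, other species) were left out. A symbol was given for 26058 tested probe sets and none for 19864. Any pair of arrays correlated at 0.953 to 0.986.

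The comparison used the two-sided test of limma (version 3.58.1, R version 4.3.3, functions lmFit and eBayes) with no term besides breed and with Benjamini-Hochberg adjustment over all 45922 probe sets at 0.05. Differences are Duroc minus PiNN. Each animal counted as 1 replicate, and the number of arrays limits the precision. The procedure was tested on simulated data.

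Members, roles and lists were chosen with earlier results of these data known. Named with full values were USP genes with a passing probe set, the 5 largest differences on each side, 10 fixed genes, and passing genes of the lists. Values of other members were added after they were seen, to show the spread. Gene positions are from RefSeq (Sscrofa11.1), since the array table holds none. Alternatives were the methods' ANOVA, q-values, unadjusted p-values, other scalings, probe set filters, array weights, the array background as a covariate, averaging of probe sets, and fewer animals.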

Additional observations from a re-analysis of the deposited data

Results flagged for a closer look

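At the brightest probe set of each gene, 5 of 90 groups of 10 animals held a value far from the others by Dixon's criterion, where chance gives about 1 in 20. USP12 was lowest in Duroc animal 46, at 6.58, with the next animal at 6.91. USP48 was lowest in Duroc animal 32, at 5.85, with the next at 6.37. PiNN animal 36 had the lowest PiNN signal of USP24, 8.56, with the next at 9.10. PiNN animal 49 had the highest PiNN signal of USP35, 5.88, with the next at 5.29, and the lowest of USP39, 7.0, with the next at 7.31. None of these genes passed the test between breeds.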

How the results depend on the processing

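All 21 named USP probe sets kept the direction of their difference under every alternative run. Many of them were named for large or passing differences in these same data. Alternatives that change only the p-value or the filter leave the difference as it is, so the kept direction is weak evidence. The counts of passing USP probe sets (11 higher, 2 lower in Duroc) were 26 and 11 at an unadjusted p, and 13 and 8 for genes at the brightest probe set (7 and 2). With array weights the lower counts were 5 probe sets and 4 genes, and partners gave 2 higher and interferon genes 1. Averaging all probe sets of a gene gave 7 genes higher and 3 lower. Quantile normalization gave 1 partner higher, 1 lower and 1 interferon gene higher. Without dim probe sets 2 partners and 1 interferon gene were higher and 3 USP probe sets and 3 genes lower, and with only named probe sets 1 partner and 1 interferon gene were higher. The q-value of the ANOVA gave 3 probe sets and 3 genes lower. With the array background as a covariate 2 other deubiquitinases and 1 partner were lower. The 7 animals with a bisulfite library gave 3 probe sets, 1 gene and 1 other deubiquitinase higher and 0 lower in each list. The other 13 gave 2 probe sets and 2 genes higher, 0 lower, 0 other deubiquitinases in either direction, 1 partner lower and a median difference of 0.035 in place of -0.03. With fewer animals each fit has less power by construction. Leaving out each animal in turn gave 8 to 13 probe sets higher and 0 to 4 lower, 5 to 7 genes higher and 0 to 4 lower, 2 to 3 other deubiquitinases higher and 1 lower, 0 to 2 partners higher and 0 to 2 lower, 0 to 2 interferon genes higher and 0 lower, and a median of -0.04 to -0.01. The cause of these changes was not tested. No paired analysis was possible because the breeds share no animal number. Probe sets below background, 26 of 107, have no firm size of difference.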
